A study of Mus musculus with 13 samples.

Results

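Hotspot H1 is one of several regulatory regions deleted with CRISPR/Cas9 in C2C12, a line of mouse myoblasts. In low-serum medium these cells stop dividing and fuse into myotubes. The H1 deletion line at 48 h of differentiation (H1_KO_48h) was compared with unedited cells at 48 h (WT_48h), 2 of the 13 samples of the series and 2 of the 12 with a peak list here. Both were grown and differentiated the same way, and acetylation of histone H3 at lysine 27 (H3K27ac) was mapped by chromatin immunoprecipitation and sequencing with 1 antibody. Peaks were kept where the deposited −log10 p was at least 4, which left 129027 of 137960 peaks in H1_KO_48h and all 71281 in WT_48h. The 8933 peaks left out of H1_KO_48h reached a −log10 p of 3.99, and the lowest kept was 4.01 in H1_KO_48h and 4.13 in WT_48h.

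The other groups used beside this pair were an H3 deletion line (H3_KO_48h), a line with H3 deleted in H2-deleted cells (H23_KO_48h), a line with H3 deleted in H4-deleted cells (H34_KO_48h) and a line in which Myod1 was knocked out (Myod1_KO_48h), all at 48 h, and unedited cells at -24, 0, 6, 12, 24 and 72 h. The labels do not say whether a line grew from 1 clone, and the CRISPR control sample at 48 h was not analysed here. Each condition had 1 library, so no test between conditions was possible, and every value describes these libraries. A deletion cannot be told apart from other differences between the edited line and unedited cells, nor from differences between the libraries. Intervals beside shares are 95% Wilson intervals and describe counting error alone.

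H3K27ac marks active promoters and enhancers. Broad or clustered H3K27ac domains with many bound factors are called super-enhancers, and hotspots are sites within them where several transcription factors bind. Myog encodes myogenin, a basic helix-loop-helix factor that is switched on as myoblasts leave the cell cycle and that drives the late muscle programme. MyoD, encoded by Myod1, belongs to the same family and binds E-boxes, short sites with the letters CANNTG.

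The Myog promoter is shown because the locus described below is the one around that gene. It is the RefSeq sequence of the 250 bases before the gene's start on the plus strand of GRCm38.p6, chr1:134289754-134290003, with E-boxes in capitals. The peak files use the mm9 build, so the promoter was not placed among the peaks.
Myog promoter: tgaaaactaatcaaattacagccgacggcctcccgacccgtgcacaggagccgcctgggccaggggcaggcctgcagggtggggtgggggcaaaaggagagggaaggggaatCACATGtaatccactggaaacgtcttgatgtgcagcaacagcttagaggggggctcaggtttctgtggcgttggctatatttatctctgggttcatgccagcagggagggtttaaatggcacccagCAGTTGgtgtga
The motif CANNTG, which reads the same on both strands in its fixed letters, occurred 2 times, with first bases at -138 and -12 from the start. At least 1 copy was present in 66.2% of the 32851 RefSeq promoter windows of this length, and at least 2 in 31.8%. The letters GTAAACA, a core site of FoxO factors, searched on both strands, were not in this window and were in 3.17% of all windows.

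The lists of the 2 libraries differed in how they were made up before any region was compared. Peaks covered 68.9 Mb in H1_KO_48h and 45.4 Mb in WT_48h, a ratio of 1.52, with a median width of 312 bp and 420 bp. The shortest peak was 130 bp in H1_KO_48h and 191 bp in WT_48h. In 74.0% of H1_KO_48h and 69.3% of WT_48h peaks the deposited fold enrichment was a whole multiple (within 0.001) of 1 step, 0.413 and 0.353. The Poisson tail of the pileup that such a step implies matched the deposited −log10 p within 0.01 in 99.99% and 99.98% of these peaks. The steps give a genome background of 1.42 fragments per base in H1_KO_48h and 1.83 in WT_48h. Where the shortest peak equals the fragment length used for the pileup, which no source used here states, the number of fragments in H1_KO_48h would be 1.14 times that in WT_48h. Their part in the results below was not tested.

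Most acetylated regions of wild-type cells were also acetylated in the H1 line, and the H1 line had many further peaks, most of them narrow. Of the 71281 WT_48h peaks, 12274 had no H1_KO_48h peak (17.2%, 95% interval 16.9 to 17.5). These are called lost. Of the 129027 H1_KO_48h peaks, 69043 had no WT_48h peak (53.5%, 53.2 to 53.8), and these are called gained. The remaining peaks joined into 49486 shared regions. H1_KO_48h covered at least 2 times the bases of WT_48h in 6970 of them (14.1%, 13.8 to 14.4), called widened, and at most 0.5 times in 3341 (6.75%, 6.53 to 6.98), called narrowed. Covered length was greater in H1_KO_48h in 61.8% of shared regions and smaller in 38.0%, with a median ratio of 1.12.

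With the 71281 strongest peaks of each list by −log10 p, gain and loss were nearly balanced. The gained share was then 33.3% (32.9 to 33.6) and the lost share 29.3% (28.9 to 29.6), and the lowest −log10 p was 7.42 in H1_KO_48h and 4.13 in WT_48h. Of the 20871 regions lost at equal numbers, 8597 (41.2%) had a weaker H1_KO_48h peak that the ranking left out. Widening exceeded narrowing, at 15.8% and 5.01% of 41142 shared regions, and covered bases were 1.22 times those of WT_48h. All WT_48h peaks stayed in, so only weaker H1_KO_48h peaks were left out. The median width of H1_KO_48h peaks was then 544 bp, against 312 bp before. A narrowed region whose weak H1_KO_48h peak is left out counts as lost, and narrowed regions fell from 3341 to 2062. Equal numbers therefore cannot check the excess of widening or of covered bases.

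The other hotspot lines were measured the same way against WT_48h. The lost share was 17.2% in H1_KO_48h, 18.3% in H34_KO_48h, 18.8% in H23_KO_48h and 26.2% in H3_KO_48h. The gained share was 53.5% in H1_KO_48h, 55.7% in H34_KO_48h, 58.0% in H23_KO_48h and 48.2% in H3_KO_48h. Widened regions made up 14.1% in H1_KO_48h, 16.5% in H34_KO_48h, 22.0% in H23_KO_48h and 12.9% in H3_KO_48h. The order of the lines depended on how many peaks were kept. At a −log10 p of at least 4 the lost share in H1_KO_48h was below that of the other 3 lines, and its gained share lay between those of H3_KO_48h and H34_KO_48h. With equal numbers of strongest peaks the lost share was 29.3% in H1_KO_48h, 29.2% in H34_KO_48h, 26.7% in H23_KO_48h and 33.1% in H3_KO_48h. The gained share was then 33.3% in H1_KO_48h, below 35.7% in H34_KO_48h, 40.8% in H23_KO_48h and 36.7% in H3_KO_48h. The widened share of H1_KO_48h lay between those of H3_KO_48h and H34_KO_48h both ways, at 15.8%, 14.2% and 18.2% in H1_KO_48h, H3_KO_48h and H34_KO_48h with equal numbers. All 4 comparisons share the same wild-type library.

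Lost and gained peaks were narrow and weak within their own lists. Median width was 267 bp for lost and 220 bp for gained peaks, against quartiles of 497 and 1361 bp for shared regions, which can join several peaks. Ranked by fold enrichment within its list, the median lost peak stood at the 22.3 percentile of WT_48h and the median gained peak at the 35.1 percentile of H1_KO_48h. Percentiles of the 2 lists, here and below, are not on a common scale. The median fold was 4.94 for lost and 4.54 for gained peaks, the reverse order. In H1_KO_48h a fold of 4.96 stood at the 45.7 percentile. Of the 10% of WT_48h peaks with the lowest fold 41.4% were lost, and of the highest 10% 10 of 7135 (0.14%). Of H1_KO_48h peaks 81.0% of the lowest 10% and 310 of 13093 (2.37%) of the highest 10% were gained.

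Width gave the same order, which the definition partly fixes, since a wide peak more easily overlaps a peak of the other list. Of WT_48h peaks under 400 bp 28.8% were lost, of those from 400 to under 800 bp 10.7%, of those from 800 to under 1600 bp 2.35%, and of the 4867 peaks of 1600 bp or more 13 (0.27%). Of H1_KO_48h peaks in the same bins 73.1%, 35.8%, 12.5% and 2.52% were gained. Gained peaks narrower than 191 bp, the shortest width in WT_48h, numbered 27398 (39.7%). Of the lost peaks 749 (6.10%) met an H1_KO_48h peak below the −log10 p of 4.

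Widened and narrowed regions are described here by values that their definition partly fixes, since covered length chose them. Their strongest peak stood at a median percentile of 79.4 in H1_KO_48h and 37.5 in WT_48h, and their covered length had a median of 924 bp in H1_KO_48h and 299 bp in WT_48h. Over all shared regions the median percentiles were 76.8 in H1_KO_48h and 60.95 in WT_48h. The median percentile of widened regions in H1_KO_48h was thus close to that of all shared regions, and in WT_48h it was lower. Narrowed regions stood at 35.1 in H1_KO_48h and 53.8 in WT_48h, with 193 bp and 594 bp covered. In 909 of the 6970 widened regions a single H1_KO_48h peak spanned 2 or more WT_48h peaks. Over all 49486 shared regions this was so in 5207, a share not much lower.

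**Figure D1:**
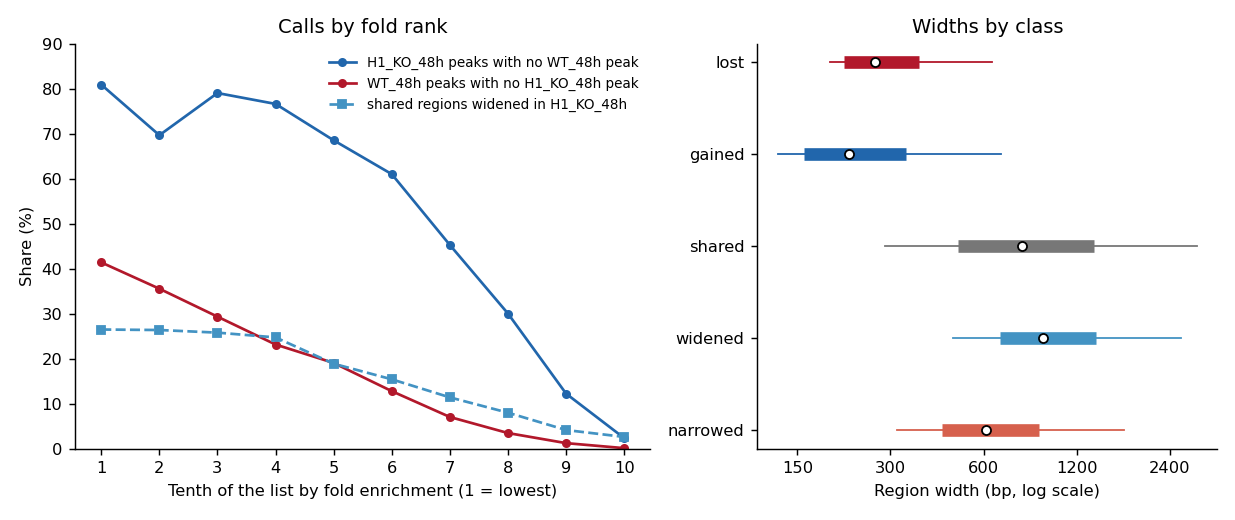
Left, share (%) of H1_KO_48h peaks with no WT_48h peak, of WT_48h peaks with no H1_KO_48h peak and of shared regions that widened, in 10 steps of the list ranked on fold enrichment (tied values make the steps unequal, and shared regions are ranked by WT_48h fold). Right, region width (bp, log scale) with the median (point), quartiles (thick bar) and 5th to 95th percentile (thin line). In the highest step 0.14% of WT_48h peaks are lost and 2.37% of H1_KO_48h peaks gained, and lost and gained regions have medians of 267 and 220 bp.

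The distance from gained and lost peaks to the nearest peak of the other list was also taken. The median distance from a gained peak to the nearest WT_48h peak was 1681 bp, with 27668 (40.1%) within 1 kb and 13556 (19.6%) more than 10 kb away. Lost peaks lay at a median of 1301 bp from the nearest H1_KO_48h peak, with 47.2% within 1 kb and 27.1% beyond 10 kb. The H1_KO_48h list is the longer one, so the distances of the 2 classes are not directly comparable. No reference distance was taken for all peaks or other positions.

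Lost and gained regions were compared with the peaks of the other edited lines. Of the lost regions 3115 (25.4%) had a peak in all of H3_KO_48h, H23_KO_48h and H34_KO_48h, so that H1_KO_48h alone of the 4 hotspot lines lacked it, and 3555 (29.0%) had none in any of these 3 lines. Of the gained regions 14115 (20.4%) had a peak in all 3 other lines, and 28646 (41.5%) had none in any of them. Myod1_KO_48h, whose list was shorter, had a peak in 6.69% of lost and 8.35% of gained regions, against 52.8% of all shared regions. Widened regions had a peak in all 3 other lines in 72.2% of cases, against 75.8% of all shared regions. Of all shared regions 5.33% had none in any of these 3 lines.

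The states of lost and gained regions in unedited cells at 24 and 72 h were compared. At 24 h 14.6% (13.95 to 15.2) of lost and 12.9% (12.7 to 13.2) of gained regions had a peak. At 72 h the shares were 11.2% (10.7 to 11.8) of lost and 13.0% (12.7 to 13.2) of gained regions. Lost regions thus met the 24 h list more often than the 72 h list, as did all shared regions, and gained regions met both about equally. All shared regions had a peak in 63.4% of cases at 24 h and 59.3% at 72 h, in lists of 80069 and 69251 peaks that cover 24.5 and 24.9 Mb.

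Regions with a peak at 24 h alone or at 72 h alone were also counted. Among gained regions 4024 had a peak at 72 h and not at 24 h, and 3983 at 24 h and not at 72 h, a ratio of 1.01. Among lost regions the numbers were 535 and 948, a ratio of 0.56. The ratio was 0.86 for widened, 0.51 for narrowed and 0.60 for all shared regions, so that of lost regions was close to that of all shared regions. For regions lost in H3_KO_48h, H23_KO_48h and H34_KO_48h the ratio was 0.68, 0.91 and 1.08. For regions gained in these lines it was 0.99, 0.91 and 0.89. Most gained (81.2%) and lost (81.1%) regions had a peak at neither time, and 66.7% and 59.2% at none of the 6 time course points. For all shared regions, which are wider, these shares were 30.4% and 17.7%.

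The same shares were taken within bins of width. Under 400 bp, where 56720 gained and 9709 lost regions lay, 9.78% of gained regions had a peak at 24 h and 9.72% at 72 h. For lost regions these shares were 11.9% and 9.42%. From 400 to under 800 bp, 24.9% of gained regions had a peak at 24 h and 25.2% at 72 h, whereas 22.7% of lost regions had one at 24 h and 16.6% at 72 h. From 800 to under 1600 bp the shares at 24 and 72 h were 38.1% and 40.05% for gained and 38.2% and 28.5% for lost regions. At 0 h 29.1% of gained and 34.8% of lost regions from 400 to under 800 bp had a peak.

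A small share of regions in each class had a peak late and not early in the time course, or the reverse. The late pattern is a peak at both 24 and 72 h with no peak at -24 or 0 h, and the early pattern is the reverse. The late pattern was found in 1.08% and the early one in 6.43% of lost regions, a difference of -5.35 percentage points. Among narrowed regions the late pattern made up 1.497% and the early one 8.41% (-6.91 points). Widened regions had more of the late pattern, with 4.55% late and 2.84% early (1.71 points). Over single times, however, a peak was present in 62.8% of widened regions at 0 h and 72.2% at 12 h, against 62.2% at 24 h and 60.8% at 72 h. Gained regions had 1.31% late and 2.42% early (-1.11 points), and all shared regions 2.49% late and 3.99% early.

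In the other hotspot lines the same measure had other values, and the difference between lines was not tested. Among lost regions the late and early shares were 1.08% and 6.43% in H1_KO_48h, 2.33% and 4.92% in H3_KO_48h, 3.30% and 3.48% in H23_KO_48h and 3.04% and 3.38% in H34_KO_48h. Among widened regions they were 4.55% and 2.84% in H1_KO_48h, 2.78% and 4.29% in H3_KO_48h, 1.97% and 5.91% in H23_KO_48h and 2.30% and 5.93% in H34_KO_48h. In H1_KO_48h alone of these 4 lines the late share of widened regions exceeded the early share. Among narrowed regions the late share was lower in H1_KO_48h, at 1.497%, than in H3_KO_48h (3.53%), H23_KO_48h (5.05%) and H34_KO_48h (5.10%). The 4 comparisons share WT_48h and the time course.

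**Figure D2:**
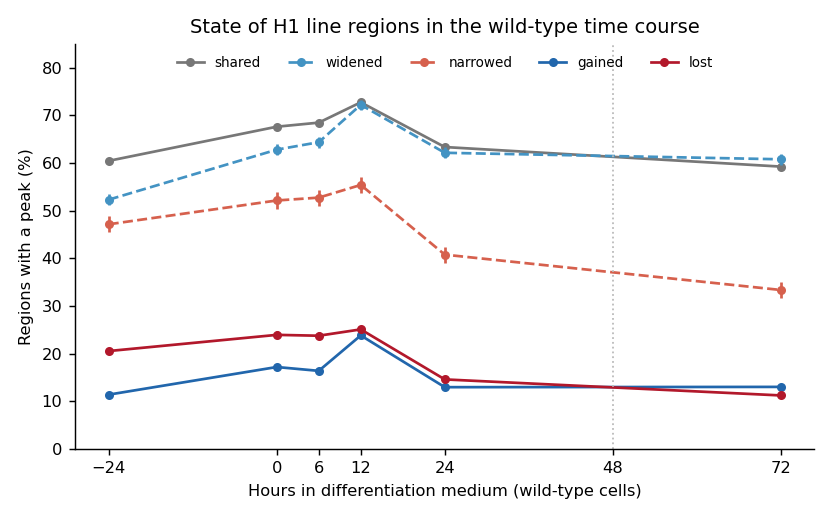
Share of regions (%) with a peak in unedited cells at each time in differentiation medium (h), for the classes of H1_KO_48h against WT_48h; vertical bars are 95% Wilson intervals and the dotted line marks 48 h, the time at which the classes were defined. At 72 h lost regions stand at 11.2%, narrowed at 33.3%, gained at 13.0% and widened at 60.8%.

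The 5 widest lost regions were all single WT_48h peaks. The widest lay on chromosome 2 at 10933959 to 10936205 (2247 bp, 78.9 percentile of WT_48h by fold), had a peak at 24 and 72 h and was found in H34_KO_48h but not in H3_KO_48h or H23_KO_48h. A second on chromosome 19 at 54766664 to 54768666 (2003 bp) had the same states at 24 and 72 h and in the 3 lines. On chromosome 3 at 106678132 to 106679969 (1838 bp) a weaker H1_KO_48h peak below the threshold was present. The region on chromosome 18 at 9818103 to 9819911 (1809 bp) had a peak at every time course point and in none of the other 3 hotspot lines. That on chromosome X at 18736824 to 18738625 (1802 bp) had a peak in all 3 other hotspot lines and neither at 24 nor at 72 h.

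The 5 lost peaks of highest fold each had a peak in at least 2 of the other 3 hotspot lines. The highest, on chromosome 10 at 67189361 to 67190447, had a fold of 21.9 (96.8 percentile of WT_48h) and was present at 24 h but absent at 72 h. A peak on chromosome 7 at 79784012 to 79785694 (fold 18.0) lacked a peak at both times and met a weaker H1_KO_48h peak. The region on chromosome X at 120200490 to 120201412 (fold 18.0) had a peak at 24 and 72 h. The peak on chromosome 12 at 15414603 to 15416135 had a fold of 17.8. A fold of 17.3 was found on chromosome 10 at 13590033 to 13590770. Neither of these had a time course peak at 24 or 72 h. Of these 5, 4 had a peak in each of H3_KO_48h, H23_KO_48h and H34_KO_48h, and the first had one in H23_KO_48h and H34_KO_48h.

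Among gained regions the widest was on chromosome 3 at 14795335 to 14800317 (4983 bp, 61.8 percentile of H1_KO_48h by fold). It had a peak in all 3 other hotspot lines and none at 24 or 72 h. The next, on chromosome 1 at 66962737 to 66967251 (4515 bp), had no peak at any time course point and 1 of the other 3 lines, H3_KO_48h, had it. A region on chromosome 13 at 49461713 to 49465972 (4260 bp) had a peak at 24 and 72 h and in all 3 lines. On chromosome 3 at 95788705 to 95792015 (3311 bp) a peak was present throughout the time course. The region on chromosome 15 at 43439073 to 43442314 (3242 bp) was present at 24 and 72 h and in none of the 3 lines.

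The 5 gained peaks of highest fold, 22.3 to 27.7, all had a peak in H3_KO_48h, H23_KO_48h, H34_KO_48h and Myod1_KO_48h, so WT_48h alone of the 48 h libraries used here lacked them. The highest was on chromosome 1 at 163657556 to 163657806 (251 bp, 99.5 percentile). It had no time course peak. Nor did the region on chromosome 4 at 88427888 to 88428879, or that at 23431851 to 23432075 of chromosome 19. A region on chromosome 5 at 115568823 to 115569350 had a peak at all 6 time course points. That on chromosome 3 at 94964368 to 94965513 was present at 24 h but absent at 72 h.

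In the widened regions with the most added bases, long H1_KO_48h peaks lay over several separate WT_48h peaks. The most added bases, 8420, were on chromosome 8 at 107390471 to 107401137, where 1 H1_KO_48h peak covered 10667 bp and 5 WT_48h peaks covered 2247 bp. This region had no peak in the time course and, of the other 3 hotspot lines, in H23_KO_48h alone. On chromosome 6 at 5693841 to 5703914 the covered length was 9833 bp in H1_KO_48h and 2961 bp in WT_48h. It was 8180 bp in H1_KO_48h and 1831 bp in WT_48h on chromosome 3 at 14865821 to 14874000. On chromosome 19 at 46715224 to 46723228 H1_KO_48h covered 8005 bp and WT_48h 1855 bp. The fifth, on chromosome 9 at 66118801 to 66129576, had 10776 bp in H1_KO_48h and 4773 bp in WT_48h. The regions on chromosomes 6, 19 and 9 had a peak at 24 and 72 h, and that on chromosome 3 at 24 h.

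In the narrowed regions with the most lost bases, short H1_KO_48h peaks lay within broad WT_48h peaks. On chromosome 13 at 13264460 to 13269681, 5 H1_KO_48h peaks covered 1822 bp of a 5222 bp WT_48h peak. A WT_48h peak on chromosome 1 at 147802225 to 147805890 (3666 bp, 99.5 percentile by fold) was covered for 667 bp in H1_KO_48h. The H1_KO_48h peak covered 262 bp and the WT_48h peak 3004 bp on chromosome 3 at 106590301 to 106593304, a ratio of 0.09. On chromosome 5 at 32162396 to 32166953 the covered length was 1669 bp in H1_KO_48h and 4413 bp in WT_48h. A region of chromosome 1 at 45098118 to 45101665 had 1055 bp in H1_KO_48h and 3548 bp in WT_48h. Except for the chromosome 13 region at 72 h, all 5 had a peak at 24 and 72 h.

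Chromosomes differed in how much the H1 line exceeded wild type. Covered bases in H1_KO_48h relative to WT_48h ranged from 1.15 on chromosome 12 and 1.16 on chromosome 1 to 1.76 on chromosome 19 and 1.87 on chromosome 3. The lost share was 25.8% on chromosome 1 and 25.7% on chromosome 12, against 12.2% on chromosome 3 and 12.0% on chromosome 19. Widened regions made up 9.41% of shared regions on chromosome 1, 8.94% on chromosome 12, 18.2% on chromosome 19 and 19.0% on chromosome 3. With equal numbers of strongest peaks, the ratio was 0.94 on chromosomes 1 and 12 and 1.48 on chromosome 3. On chromosome 12 the ratio in the other lines ranged from 1.07 in H3_KO_48h to 1.97 in H23_KO_48h. On chromosome 1 it was 1.16 in H3_KO_48h, as in H1_KO_48h, 1.71 in H23_KO_48h and 1.48 in H34_KO_48h. On chromosome 3 these 3 lines had 1.19, 1.31 and 1.63.

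**Figure D3:**
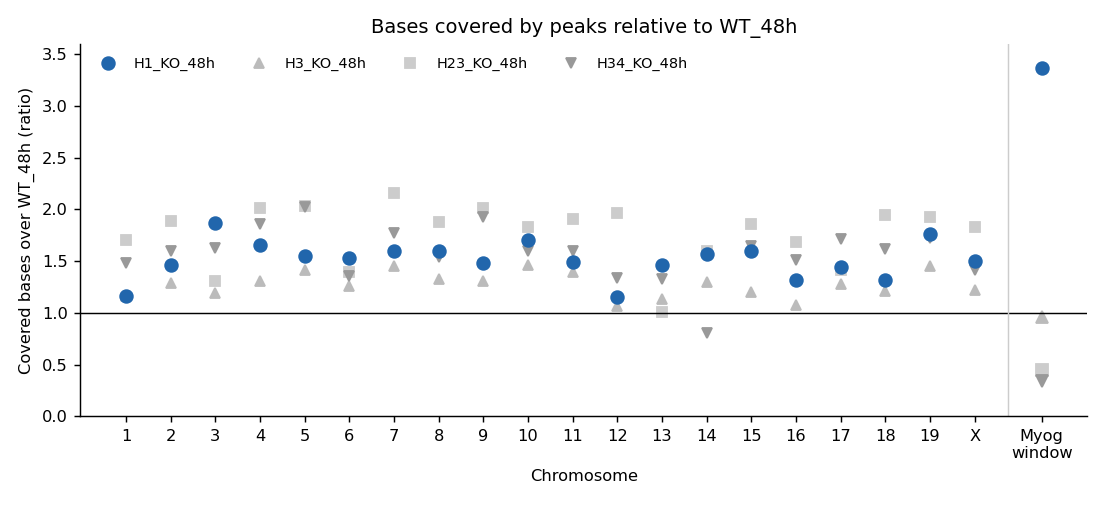
Bases covered by peaks of −log10 p of at least 4 in each hotspot line, divided by those in WT_48h (ratio), for each chromosome and for the Myog window on chromosome 1. H1_KO_48h stands at 1.16 on chromosome 1 and at 3.37 in the Myog window, where the other 3 lines lie between 0.345 and 0.965.

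The Myog locus was described over a 160 kb window of mm9 chromosome 1, 136120000 to 136280000. No annotation of mm9 was used, so peaks in it are given by position and none is called the promoter. Peaks covered more of this window in the H1 line than in wild-type cells. In H1_KO_48h 62 peaks covered 36340 bp (22.7% of the window), against 18 peaks and 10796 bp (6.75%) in WT_48h, a ratio of 3.37. The same ratio was 1.16 over chromosome 1 and 1.52 over all chromosomes. Among 3093 tiles of the same length with at least 5 kb covered in WT_48h, the median ratio was 1.44 and 55 (1.78%) had a ratio of at least 3.37. On chromosome 1, 2 of 212 such tiles did.

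None of the 18 WT_48h peaks in the window was lost, against 17.2% of all WT_48h peaks. Of the 62 H1_KO_48h peaks 45 (72.6%) were gained, against 53.5% over the genome, and 7 of 15 shared regions (46.7%) were widened, against 14.1%. No shared region of the window was narrowed. H1_KO_48h covered 9541 of the 10796 bp covered in WT_48h (88.4%). The position of the deleted H1 sequence was not given in the sources used here, so the edit could not be checked. Runs of at least 200 bp covered in WT_48h and not in H1_KO_48h were at 136172629 to 136173012 (384 bp) and 136259015 to 136259349 (335 bp), both inside regions that kept an H1_KO_48h peak.

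The other edited lines covered less of this window than WT_48h. H3_KO_48h covered 10417 bp, H23_KO_48h 4857 bp, H34_KO_48h 3720 bp and Myod1_KO_48h 807 bp, against 10796 bp in WT_48h. H3_KO_48h peaks met 8 of the 18 WT_48h peaks, H23_KO_48h peaks 4, H34_KO_48h peaks 3 and Myod1_KO_48h peaks 1. H3_KO_48h was thus close to WT_48h in covered length while meeting fewer than all of its peaks. In unedited cells the window held 1063 bp at -24 h, 1225 bp at 0 h, 1358 bp at 6 h, 2732 bp at 12 h, 1836 bp at 24 h, 10796 bp at 48 h and 5678 bp at 72 h. The lists also differed over all chromosomes, where covered bases relative to WT_48h ranged from 0.54 in the 24 h list to 0.91 in the 12 h list, with 0.55 in the 72 h list. The window ratio to WT_48h was 0.53 at 72 h, close to that of the whole list, and 0.17 at 24 h, below it. Over all chromosomes H3_KO_48h covered 1.28 times, H23_KO_48h 1.77 times, H34_KO_48h 1.60 times and Myod1_KO_48h 0.40 times the bases of WT_48h. The H1_KO_48h value in the window exceeded that of each of the 11 other libraries.

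**Figure D4:**
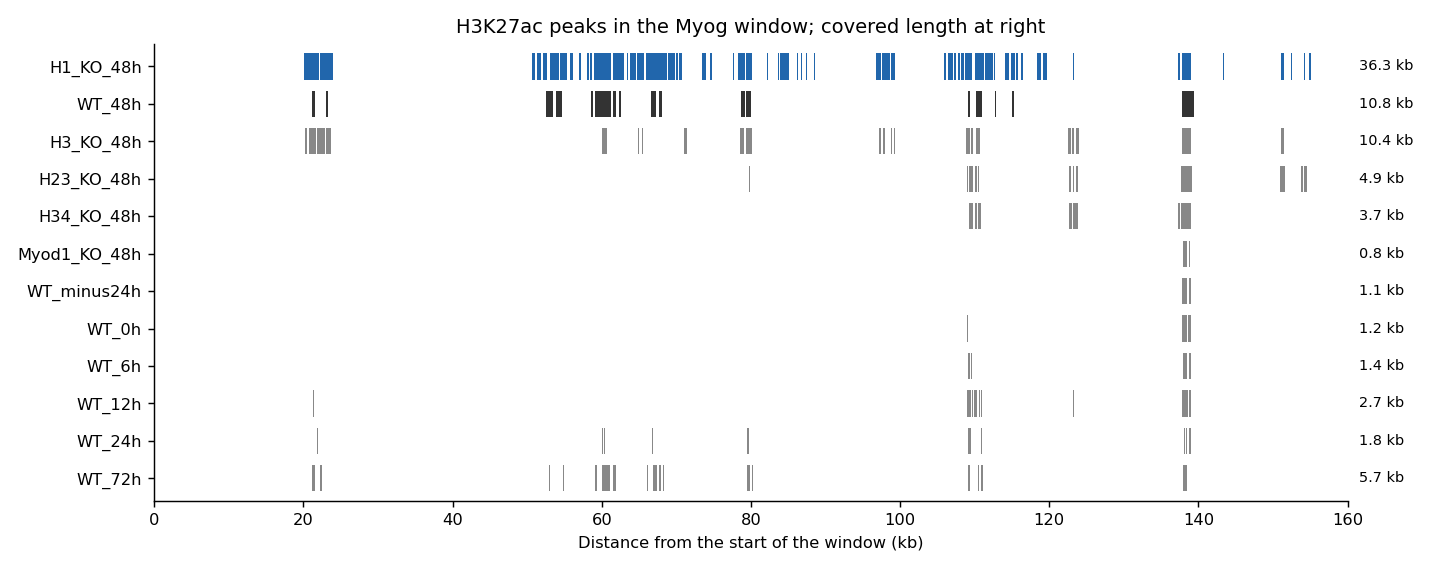
Peaks drawn to scale as bars over the Myog window, x axis in kb from its start, for H1_KO_48h and WT_48h at the top, then the other edited lines at 48 h and the other times of unedited cells; the covered length is at the right. H1_KO_48h fills 36340 bp and WT_48h 10796 bp, and the rightmost WT_48h peak is present in all 12 libraries.

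The widest peak of the window in H1_KO_48h ran from 136185875 to 136188737, 2863 bp at the 85.4 percentile by fold, over a pair of WT_48h peaks at 136186599 to 136187329 (731 bp) and 136187729 to 136188131 (403 bp). Both WT_48h peaks stood near the middle of their list, at the 57.6 and 53.8 percentiles. This region was also present at 24 and 72 h, and absent in H3_KO_48h, H23_KO_48h, H34_KO_48h or Myod1_KO_48h. Next to it, 136181457 to 136182992 was 1536 bp in H1_KO_48h, with 2 WT_48h peaks of 323 and 338 bp. It was present at 72 h and absent at 24 h.

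The strongest WT_48h peaks of the window did not all widen. At 136179064 to 136179826 WT_48h had a peak of 763 bp at the 89.6 percentile, and the H1_KO_48h peak over it was 913 bp at the 85.4 percentile. The H1_KO_48h peak at 136179956 to 136181253 was 1298 bp and the WT_48h peak at 136179933 to 136181232 was 1300 bp, the same length to within 2 bp. At 136257733 to 136259349, the region with a peak in all 12 libraries, H1_KO_48h covered 1215 bp and WT_48h 1617 bp, a ratio of 0.75. The 7 widened regions of the window covered between 235 and 1134 bp in WT_48h.

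Toward the low end of the window, a pair of short WT_48h peaks at 136141089 to 136141496 (408 bp) and 136142950 to 136143250 (301 bp) lay under H1_KO_48h peaks of 1908 and 1725 bp, ratios of 4.68 and 5.73. H3_KO_48h had a peak at both, and H23_KO_48h and H34_KO_48h at neither. On the other side, 136198278 to 136199202 was 925 bp in H1_KO_48h and 444 bp in WT_48h, and its neighbour at 136199313 to 136200176 was 864 bp in H1_KO_48h and 623 bp in WT_48h. The peak at 136228682 to 136229444 covered 763 bp in H1_KO_48h and 235 bp in WT_48h and stood at the 92.5 percentile in H1_KO_48h and the 22.3 percentile in WT_48h. Its fold was 14.9 in H1_KO_48h and 4.94 in WT_48h. At 136230001 to 136231208 the lengths were 1208 bp in H1_KO_48h and 790 bp in WT_48h. These last 2 regions had a peak in all 3 other hotspot lines and at 24 and 72 h.

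The remaining shared regions of the window gave mixed values. The WT_48h peak at 136235028 to 136235306 was at the 3.69 percentile, and its H1_KO_48h region, 627 bp against 279 bp in WT_48h, was at the 87.2 percentile. The folds there were 3.89 in WT_48h and 11.6 in H1_KO_48h. At 136232661 to 136232879 the WT_48h peak of 219 bp met an H1_KO_48h peak of 145 bp. Neither of these had a peak at any other time or in another edited line. The region at 136172111 to 136174644 held 3 H1_KO_48h peaks covering 2002 bp and 2 WT_48h peaks covering 1723 bp, and that at 136178419 to 136178862 had 326 bp in H1_KO_48h and 299 bp in WT_48h.

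Of the 45 gained peaks in the window 14 were at least 500 bp wide and 13 were narrower than 191 bp. At 24 h none of the 45 had a peak in unedited cells and at 72 h 1 had. Over all gained regions the shares were 12.9% at 24 h and 13.0% at 72 h. H3_KO_48h had a peak at 7 of the 45 (15.6%), H23_KO_48h at 4 (8.89%), H34_KO_48h at 3 (6.67%) and Myod1_KO_48h at none. Over all gained regions these shares were 33.5% in H3_KO_48h, 43.1% in H23_KO_48h, 40.003% in H34_KO_48h and 8.35% in Myod1_KO_48h. The widest were 136203831 to 136205063 (1233 bp, 77.7 percentile), with no peak in any other library, and 136217604 to 136218610 (1007 bp, 85.4 percentile), with a peak in H3_KO_48h.

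Within the main cluster of WT_48h peaks the ratio was smaller than over the window. The WT_48h domain made by joining peaks within 10 kb ran from 136172574 to 136188131 (15.6 kb, 9 peaks). H1_KO_48h covered 11332 bp of it and WT_48h 5880 bp, a ratio of 1.93. Among 3983 WT_48h domains of at least 5 peaks the median ratio was 1.20, and this domain ranked 400, so 10.0% of domains had a ratio at least as large. In H3_KO_48h the ratio over this domain was 0.15, and H23_KO_48h and H34_KO_48h covered none of it. The larger part of the excess over the window therefore lay outside the domain, where H1_KO_48h had many peaks and WT_48h few.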

How the data were processed

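Peak lists of H3K27ac from 12 C2C12 libraries were used, 1 list per library. The submitters' processing notes name MACS2 2.1.0 as a tool and mm9 as the build. The aligner, the control and the calling cutoffs are not given in the sources used here. The 6 lists at 48 h hold 10 columns as deposited: a score, the fold enrichment at the summit (column 7, a ratio), the −log10 p (column 8), the −log10 q and the summit offset. The 6 other lists hold 5 columns, the last a deposited score whose unit is unstated and whose minimum was 4.00 or 4.01. These are the authors' values per peak and were used to filter and rank peaks within a list.

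Peaks of the 48 h lists with a −log10 p of at least 4 were kept. Peaks overlapping by 1 base were shared. Regions are merged overlapping peaks of both lists. Coordinates are mm9, counted from 1. Named regions were the 5 widest and the 5 of highest fold among lost and among gained peaks, the 5 widened and 5 narrowed regions with the largest change in covered bases, and the Myog window peaks. The members, lists and comparisons were chosen with earlier results of these data known. The late and early patterns, tiles, runs, chromosome values and background estimate were chosen after the values were seen. Gene lists and cell type markers were not checked, since no mm9 annotation was used, and positions are given without gene names. RefSeq promoters (GRCm38.p6) supplied the sequence; 1 of 1 symbol matched. The calls of lost, gained, widened and narrowed were tested on the WT_48h list with chosen isolated peaks removed, added, widened or narrowed. Other steps were not tested in this way. Python 3.11.15, numpy 2.4.6, pandas 2.3.3, scipy 1.17.1 and matplotlib 3.10.9 were used.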

Additional observations from a re-analysis of the deposited data

Results flagged for a closer look

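The length covered by peaks in the Myog window, relative to WT_48h, was above 1 in H1_KO_48h and below 1 in the other 3 hotspot lines. It was 3.37 in H1_KO_48h, 0.965 in H3_KO_48h, 0.45 in H23_KO_48h and 0.345 in H34_KO_48h. Each line had 1 library and all share WT_48h, and the difference between lines was not tested.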

How the results depend on the processing

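Of 94 alternatives to 21 results, 34 stayed within the margin of the reported value, 60 moved beyond it and 0 reversed. Reversal was defined for the late minus early differences alone. The order of some other values did change. At 24 h 14.6% of lost and 12.9% of gained regions had a peak, but 19.9% and 21.2% with equal numbers by −log10 p. Widened regions had a peak in 62.2% of cases at 24 h and 60.8% at 72 h. With the summit inside a time course peak these were 42.3% and 43.3%. For shares and late minus early differences the margin was the 95% interval. For the ratios and rank of the Myog window and domain it was a factor of 1.5. The interval of the window's covered share treats its bases as independent. The causes of the moves were not tested. The gained share was 34.4% and 33.3% with equal numbers by fold and by −log10 p, 42.7% with peaks merged within 1 kb, 49.4% at a −log10 p of 5, 56.5% with an overlap of 50% of the shorter peak, 43.5% with peaks at least as wide as the shortest WT_48h peak and 55.6% with whole lists. Under the same settings in the same order the lost share was 30.1%, 29.3%, 15.9%, 19.4%, 20.5%, 22.2% and 16.2%. The widened share was 27.1% at 1.5 times, 15.8% with equal numbers by either column, 29.3% merged, 14.5% at 5 and 15.1% with the width limit. The narrowed share in that order was 13.5%, 5.13% by fold and 5.01% by −log10 p, 6.98%, 6.31% and 4.46%.

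With equal numbers by −log10 p, the shares with a peak at 24 h and 72 h were 21.2% and 20.7% for gained, 19.9% and 16.1% for lost, 70.3% and 66.3% for shared and 64.1% and 62.9% for widened regions. At a −log10 p of 5 they were 14.5% and 14.5% for gained, 15.7% and 12.3% for lost and 64.998% and 60.9% for shared regions. With the summit inside a time course peak they were 7.95% and 8.46% for gained, 8.24% and 6.65% for lost, 47.3% and 44.6% for shared and 42.3% and 43.3% for widened regions. At a score of 5 the 24 h shares were 12.5% for gained, 13.8% for lost and 62.7% for shared regions. Late minus early was -0.75 points for gained and -5.53 for narrowed regions with equal numbers, and -0.90 and -5.66 with the width limit. The Myog window was covered to 19.9% in H1_KO_48h with equal numbers, 22.2% at 5, 21.4% with the width limit and 23.4% with whole lists. With peaks joined within 5 kb the domain ranked 227 of 3242 domains, against 400 of 3983 when joined within 10 kb. The width limit and the late and early patterns were chosen after seeing the data.

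No paired analysis was possible because each condition has 1 library, and leaving out a replicate was not possible for the same reason. Read totals are unknown, and the lists have different lowest −log10 p values and shortest widths. A peak missing from a list is not shown to be absent.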

Other observations

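Lost and gained peaks also occurred in runs of neighbouring peaks, and the longest of these were picked out after their values were seen. Lost WT_48h peaks fell into 7723 runs, of which 67.7% held 1 peak and 23 held 10 or more. Gained H1_KO_48h peaks fell into 24047 runs, 38.7% of 1 peak and 744 of 10 or more. Lost peaks were 17.2% of WT_48h peaks and gained peaks 53.5% of H1_KO_48h peaks. A class with a larger share of its list forms longer runs even in random order. Whether runs were longer than these shares give was not tested. In the densest of the 5 gained runs of at least 40 peaks, 44 consecutive peaks lay within 37.2 kb of chromosome X at 92128577 to 92165800. H3_KO_48h had a peak at 33 of these, H34_KO_48h at 40 and H23_KO_48h at 13.

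A run of 47 gained peaks on chromosome 6 at 107446916 to 107512693 was nearly absent from the other lines, with a peak at 2 of 47 in H3_KO_48h and at none in H23_KO_48h and H34_KO_48h. The same held for 41 gained peaks on chromosome 15 at 43310221 to 43455029, of which 1 met a peak in H23_KO_48h and none in H3_KO_48h or H34_KO_48h. A run of 44 on chromosome 10 at 83111548 to 83799842 met 1 peak in H3_KO_48h, 8 in H23_KO_48h and 1 in H34_KO_48h. The longest, 79 peaks on chromosome 2 at 174934875 to 176991619, was shared with the other lines at 53 peaks in H3_KO_48h, 53 in H23_KO_48h and 49 in H34_KO_48h. Among lost peaks, 17 in a row on chromosome 18 at 9707685 to 9834234 were also missing from H3_KO_48h and H34_KO_48h and present at 2 in H23_KO_48h. A further 17 on chromosome 7 at 79754555 to 80164399 had a peak at 8 in H3_KO_48h, 15 in H23_KO_48h and 11 in H34_KO_48h, and 15 on chromosome 12 at 14308167 to 15713995 at 6, 10 and 13.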
